A study of Saccharomyces cerevisiae with 40 samples.

Results

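The genes described here encode the subunits of the nuclear RNA polymerases of Saccharomyces cerevisiae. They were chosen by name: 31 listed genes, all of them measured on both array platforms, out of 5540 genes on the spotted cDNA arrays and 5598 on the Agilent oligonucleotide arrays. By where the subunit is used, 7 are specific to RNA polymerase I (Pol I), 7 to Pol II and 10 to Pol III, 2 are shared by Pol I and Pol III, and 5 are shared by all 3 enzymes.

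Pol I makes the large ribosomal RNA precursor in the nucleolus, Pol II makes messenger RNAs, and Pol III makes transfer RNAs and the small ribosomal RNA of the large subunit. The enzymes have a common core built on a pair of large catalytic subunits, an assembly platform of an alpha-like heterodimer and the shared subunits, and each adds its own stalk and its own subunits for initiation, cleavage or termination. In growing yeast the genes for Pol I and Pol III subunits are known to be expressed together with genes for ribosome assembly, and to be lowered in many stresses.

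All strains were BY4741 or deletion derivatives of it, a haploid laboratory strain auxotrophic for histidine, leucine, methionine and uracil, so controls and treated cells shared these markers. On the Agilent arrays, total RNA from cells given 100 µM sodium arsenite (AsIII) for 2 h was compared with RNA from untreated cells of the same strain, in yap1Δ, cad1Δ, rpn4Δ and arr1Δ cells (2 arrays each) and in the parent (4 arrays), and untreated yap1Δ, cad1Δ, rpn4Δ and arr1Δ cells were each compared with the untreated parent (2 arrays each). YAP1 and CAD1 encode related stress transcription factors, RPN4 the activator of proteasome genes and ARR1 the activator of arsenic export genes, and each deletion was represented by 1 strain. On the cDNA arrays, poly(A) RNA from treated BY4741 was compared with RNA from its untreated culture after 30 min, 2 h and 4 h at 100 µM AsIII (4 arrays and 1 culture pair each) and after 30 min at 1 mM AsIII (8 arrays, 2 culture pairs).

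Every value below is a log2 ratio, treated over untreated or deletion over parent, so that 1 means a 2-fold rise and 0 means no difference, and a fold is given where it helps. A ratio carries no absolute level, and levels were not compared between genes. Arrays with exchanged dyes were averaged to 1 replicate, and a gene "rose" or "fell" where limma's moderated test gave a Benjamini-Hochberg adjusted p under 0.05 over all genes of the platform. On the Agilent arrays the only replicated condition was the parent, with 2 dye-exchange pairs, and the fit gave every gene the same SD of 0.172, so the standard error was 0.12 for each response of the parent, 0.17 for each of a deletion strain and 0.21 for each difference between them. For the parent, values of single arrays are given with treated RNA in Cy5 first (arrays 1 and 3) and then in Cy3 (arrays 2 and 4), and for a deletion strain in Cy5 and then Cy3. On cDNA arrays the first pair of values of a culture pair has treated RNA in Cy3 and the next in Cy5. The labels name the culture pairs at 1 mM as separate biological repeats, but say nothing of separate cultures for the Agilent parent pairs, so the Agilent p-values measure the spread between arrays, which may be technical.

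Each deletion was checked on its own gene in untreated cells, where YAP1 was at -4.35, CAD1 at -4.76, RPN4 at -4.04 and ARR1 at -2.27 (-0.95 and -3.60 on its arrays). Array medians over all genes lay between -0.06 and 0.07 on cDNA arrays and between -0.11 and 0.002 on Agilent arrays. Arrays of opposite dye orientation correlated over all genes with r of 0.817 to 0.926 in the 5 AsIII comparisons, but with r of -0.479 in untreated yap1Δ and -0.137 in untreated cad1Δ cells, and with r of -0.05 to 0.201 at 30 min of 100 µM on cDNA arrays. Values from these last conditions are given by array where a result turns on them.

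In the parent, 2 h of AsIII raised most polymerase subunit genes by a small amount on the Agilent arrays. Of the 31 genes, 20 rose and 5 fell, or 64.5% and 16.1%, where over all genes 34.7% rose and 42.7% fell. Their median was 0.35, against -0.10 over all genes. The same held in yap1Δ cells, with 18 up and 3 down (58.1% and 9.68%, against 30.5% and 36.0% of all genes; median 0.44), and in cad1Δ cells, with 17 up and 4 down (54.8% and 12.9%, against 31.9% and 36.0%; median 0.44). In rpn4Δ cells 11 rose and 4 fell (35.5% and 12.9%, against 24.4% and 29.9%; median 0.12), and in arr1Δ cells 7 rose and 6 fell (22.6% and 19.4%, against 23.2% and 26.9%; median 0.11), where the share that rose was at the level of all genes. Without any single array of their strain, 14 of 21 calls in yap1Δ, 17 of 21 in cad1Δ, 13 of 15 in rpn4Δ, 11 of 13 in arr1Δ and 15 of 25 in the parent held.

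**Figure D1:**
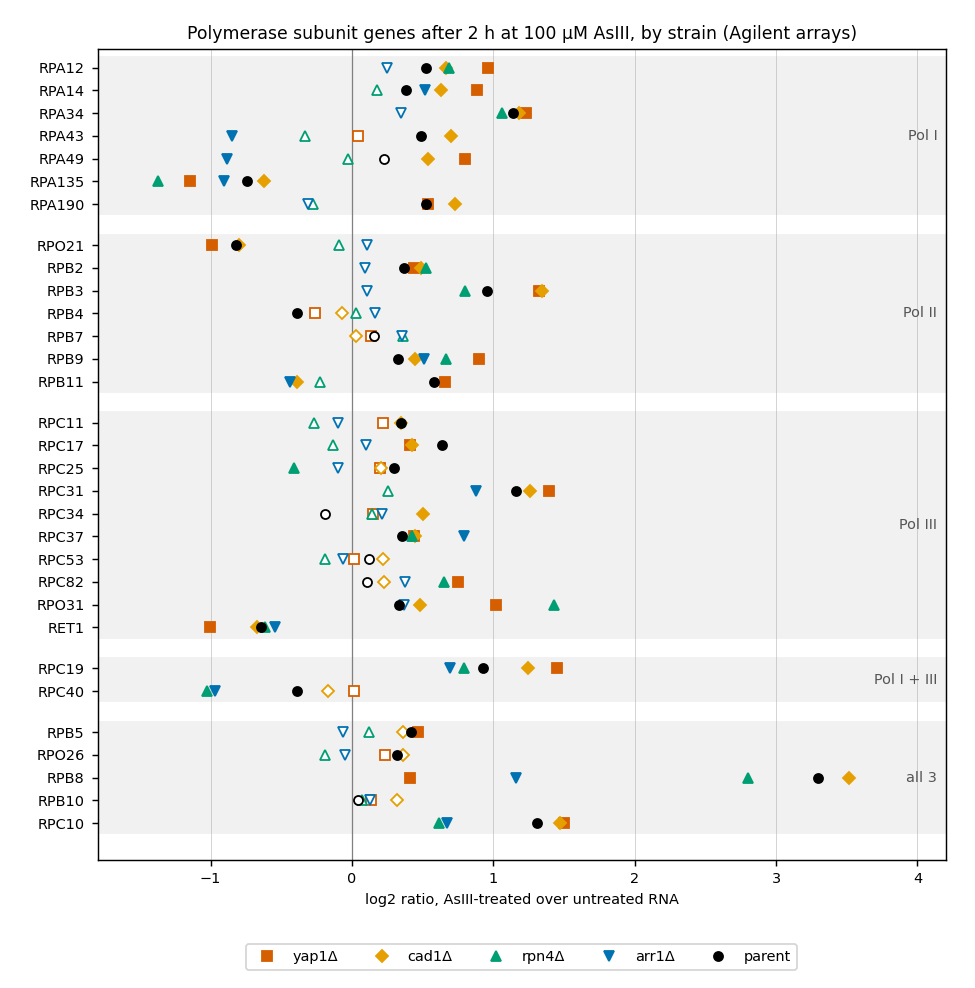
Log2 ratio of treated over untreated RNA (horizontal axis) for each of the 31 subunit genes (rows, grouped by polymerase) after 2 h at 100 µM AsIII, with a symbol for each strain. Filled symbols passed the adjusted threshold and open ones did not. RPB8 stands apart at 3.51 in cad1Δ and 3.30 in the parent, and RPA135 and RET1 lie left of 0 in all 5 strains.

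Across the 5 strains, 5 genes rose in every one: RPB8, RPC10, RPC19, RPC37 and RPB9. A pair of genes, RPA135 and RET1, fell in every strain. Of these, RPC19, RPA135 and RET1 kept their calls in every strain without any single array. Leaving out 1 array lost the call of RPB8 in yap1Δ, RPC10 in rpn4Δ, RPC37 in yap1Δ and the parent, and RPB9 in the parent. In all, 19 rose in at least 1 strain and fell in none, 5 fell in at least 1 and rose in none, 4 rose in some and fell in others, and 3 (RPB7, RPC53 and RPB10) passed in no strain. The spread of a gene over the strains, highest minus lowest, had a median of 0.72 and was smallest for RPB10 at 0.28 and largest for RPB8 at 3.10. The lowest value was in arr1Δ for 10 genes and in rpn4Δ for 10, and the highest was in yap1Δ for 12 and in cad1Δ for 10. These counts across strains were not made over all genes, so they do not set the subunit genes apart. The parent value averages 2 dye-exchange pairs and that of each deletion strain is from 1, so extremes fall more readily on a deletion strain.

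Among the 7 Pol I specific genes, 5 rose and 1 fell in yap1Δ, 6 rose and 1 fell in cad1Δ, 2 rose and 1 fell in rpn4Δ, 1 rose and 3 fell in arr1Δ, and 5 rose and 1 fell in the parent, with medians of 0.80, 0.67, -0.03, -0.31 and 0.49 in that order. The share that rose was 71.4% in yap1Δ, 85.7% in cad1Δ and 71.4% in the parent, where 30.5%, 31.9% and 34.7% of all genes did. It was 28.6% in rpn4Δ, near the 24.4% of all genes, and in arr1Δ 14.3% rose and 42.9% fell, where 23.2% and 26.9% of all genes did, counts of 1 and 3 genes. RPA34, which with RPA49 forms a dimer that acts in initiation and elongation, had 1.36 and 1.11 on the yap1Δ arrays, 1.25 and 1.12 in cad1Δ, 1.19 and 0.94 in rpn4Δ, 0.46 and 0.24 in arr1Δ, and 1.17, 1.28, 1.19 and 0.92 in the parent. The arr1Δ arrays were below all others for this gene. Its partner RPA49 had 0.73 and 0.87 in yap1Δ, 0.44 and 0.63 in cad1Δ, -0.04 and -0.01 in rpn4Δ, -0.91 and -0.85 in arr1Δ, and -0.06, 0.22, 0.49 and 0.27 in the parent. The mean of RPA34 was above that of RPA49 in every strain: 1.23 and 0.80 in yap1Δ, 1.18 and 0.54 in cad1Δ, 1.06 and -0.03 in rpn4Δ, 0.35 and -0.88 in arr1Δ, and 1.14 and 0.23 in the parent.

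RPA43, the stalk subunit that docks the initiation factor Rrn3, had 0.61 and -0.53 on the yap1Δ arrays, 0.74 and 0.66 in cad1Δ, -0.25 and -0.41 in rpn4Δ, -0.75 and -0.96 in arr1Δ, and 0.69, 0.41, 0.57 and 0.28 in the parent. The arrays of rpn4Δ and arr1Δ did not overlap with those of the parent, while the yap1Δ arrays gave opposite signs. RPA14, the other stalk subunit, rose in every strain except rpn4Δ (0.88 in yap1Δ, 0.63 in cad1Δ, 0.51 in arr1Δ, 0.38 in the parent and 0.18, not called, in rpn4Δ). RPA12, which takes part in RNA cleavage, rose in every strain except arr1Δ (0.96 in yap1Δ, 0.67 in cad1Δ, 0.68 in rpn4Δ, 0.52 in the parent and 0.25, not called, in arr1Δ).

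Of the 7 Pol II specific genes, RPB3 changed most in the parent. It forms the alpha-like platform with RPB11, and it had 0.98 and 1.67 in yap1Δ, 1.02 and 1.68 in cad1Δ, 0.62 and 0.99 in rpn4Δ, -0.10 and 0.31 in arr1Δ, and 0.66, 0.59, 1.12 and 1.43 in the parent. All arrays but those of arr1Δ were above 0.5. RPB11 had 1.18 and 0.13 in yap1Δ, -0.17 and -0.61 in cad1Δ, -0.11 and -0.35 in rpn4Δ, -0.27 and -0.61 in arr1Δ, and 1.00, 0.45, 1.01 and -0.13 in the parent. The dye-exchange pairs of the parent gave means of 1.00 and 0.16, the widest disagreement among the 31 genes, at 0.84, where the median disagreement was 0.14. The called differences of RPB11 from the parent therefore rest on a gene whose own parent values varied more than the SD of the fit.

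RPB9, which acts in start site choice and fidelity, rose in every strain, by 0.90 in yap1Δ, 0.45 in cad1Δ, 0.67 in rpn4Δ, 0.51 in arr1Δ and 0.32 in the parent, though the parent value lost its call without any of arrays 2, 3 and 4. Of the stalk pair RPB4 and RPB7, RPB4 fell in the parent (-0.48, -0.37, -0.45 and -0.26 on its arrays, mean -0.39, adjusted p = 0.00223 in limma). In the deletion strains RPB4 was not called, with -0.26 in yap1Δ, -0.07 in cad1Δ, 0.03 in rpn4Δ and 0.16 in arr1Δ. RPB7 lay between 0.03 and 0.36 with no call in any strain.

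Of the 10 Pol III specific genes, RPC31, part of the subcomplex used in initiation, changed most in the parent. Its arrays had 0.85 and 1.93 in yap1Δ, 0.92 and 1.59 in cad1Δ, 0.04 and 0.47 in rpn4Δ, 0.40 and 1.35 in arr1Δ, and 0.92, 0.65, 1.65 and 1.41 in the parent, with the higher value of each strain on arrays with treated RNA in Cy3. The rpn4Δ arrays were below those of every other strain within each dye. RPC82, of the same subcomplex, rose in yap1Δ (0.75) and rpn4Δ (0.65) and had 0.23 in cad1Δ, 0.38 in arr1Δ and 0.11 in the parent. RPC37, of the dimer with RPC53 that acts in termination, rose in all strains (0.44 in yap1Δ, 0.44 in cad1Δ, 0.43 in rpn4Δ, 0.79 in arr1Δ and 0.36 in the parent), while RPC53 passed in none and lay between -0.19 and 0.22. The call of RPC37 was lost in yap1Δ without array 2 (0.30) and in the parent without array 1 or 3 (0.31 and 0.35). RPC17 and RPC25, the Pol III stalk, rose in the parent (0.64 and 0.30) and had -0.13 and -0.41 in rpn4Δ, where RPC25 fell. RPC17 also rose in yap1Δ (0.41) and cad1Δ (0.42), but lost both of these calls without array 1 (0.13 and 0.31). RPC25 lost its call in the parent without array 2 or 4 (0.19 and 0.22) and in rpn4Δ without array 1 (-0.16). RPC11, which takes part in RNA cleavage, rose in the parent (0.35, adjusted p = 0.00612 in limma), a call lost without array 4 (0.16, adjusted p = 0.369), and had the same mean in cad1Δ (0.35, not called).

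RPC34, the last of the initiation subcomplex, has probes that disagree. Its 2 Agilent probes correlated with r of -0.09 over 20 arrays, where the median over the 22 members with 2 probes was 0.963. On the cad1Δ array with treated RNA in Cy3, probe 1 read 2.37 and probe 2 read -0.24, and on both parent arrays with treated RNA in Cy3 probe 1 of RPC34 was listed at exactly 0, the only such values among 1060 of these genes. The call of RPC34 in cad1Δ (0.50) rested on that single array, and without it the value was -0.07.

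Of the subunits shared by Pol I and Pol III, which pair as an alpha-like platform, RPC19 rose and RPC40 did not. RPC19 had 1.27 and 1.63 in yap1Δ, 1.21 and 1.28 in cad1Δ, 0.87 and 0.71 in rpn4Δ, 0.73 and 0.67 in arr1Δ, and 0.94, 1.00, 0.99 and 0.77 in the parent, above 0.5 on every array. RPC40 had 0.01 and 0.01 in yap1Δ, -0.15 and -0.19 in cad1Δ, -0.96 and -1.09 in rpn4Δ, -0.89 and -1.04 in arr1Δ, and -0.43, -0.16, -0.57 and -0.40 in the parent. RPC40 fell in rpn4Δ, arr1Δ and the parent.

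Of the 5 subunits shared by all 3 polymerases, RPC10, a small zinc-binding subunit, rose in every strain, with 1.59 and 1.41 in yap1Δ, 1.63 and 1.31 in cad1Δ, 0.91 and 0.33 in rpn4Δ, 0.76 and 0.58 in arr1Δ, and 1.35, 1.70, 1.05 and 1.12 in the parent. RPB5 and RPO26, subunits of the common core, rose in the parent (0.42 and 0.32), RPO26 with a call lost without array 1 or array 3, and RPB5 also rose in yap1Δ (0.47). Both had 0.36 in cad1Δ, just short of the threshold (adjusted p = 0.0503 and 0.0514 in limma), and neither was called in rpn4Δ (0.12 and -0.19) or arr1Δ (-0.06 and -0.05). RPB10, another zinc-binding subunit, lay between 0.04 and 0.32 in the 5 strains.

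RPB8, the remaining shared subunit, had the largest value of the 31 genes on these arrays. It had 0.47 and 0.35 on the yap1Δ arrays, 3.68 and 3.35 in cad1Δ, 2.98 and 2.62 in rpn4Δ, 1.42 and 0.90 in arr1Δ, and 3.40, 3.62, 2.89 and 3.28 in the parent. The parent mean of 3.30 is a 9.83-fold rise, and the arrays of yap1Δ and arr1Δ did not overlap with those of the parent. Both probes gave the same picture, with r of 0.998 over 20 arrays and a largest disagreement of 0.24. Compared with the parent, the response was lower by 2.88 in yap1Δ (SE 0.21, adjusted p = 9.26e-40 in limma) and by 2.14 in arr1Δ (SE 0.21, adjusted p = 2.63e-22), and both differences held without any single array.

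The gene next to RPB8 on its upstream side, transcribed in the same direction, is ISU2, which encodes a scaffold protein for iron-sulfur clusters in mitochondria. ISU2 is no polymerase gene and was chosen after its values were seen. It had 0.04 and 0.89 in yap1Δ, 3.25 and 3.76 in cad1Δ, 2.35 and 3.07 in rpn4Δ, 2.01 and 2.39 in arr1Δ, and 2.47, 2.58, 2.99 and 3.46 in the parent. Over the 5 strains the means of ISU2 and RPB8 correlated with r of 0.92, a description over 5 points that share their arrays. The yap1Δ strain was lowest in both, and in arr1Δ the gap to the parent was 0.67 for ISU2 and 2.14 for RPB8. DSC3, the gene on the other side of RPB8 and on the opposite strand, had 0.91 in yap1Δ and 0.70 in the parent and did not share this order. Whether transcripts of ISU2 that extend into RPB8 were part of the RPB8 signal was not tested.

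**Figure D2:**
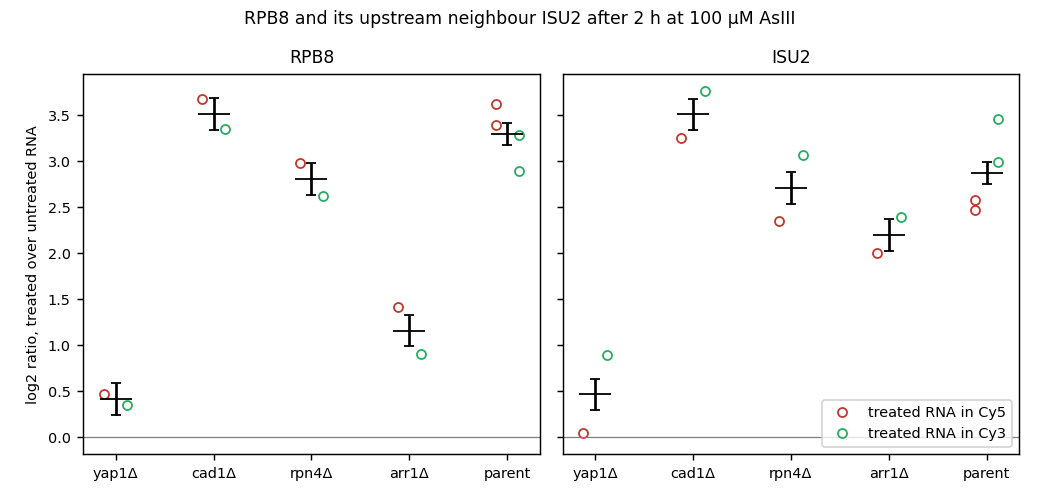
Log2 ratio of treated over untreated RNA (vertical axis) for RPB8 (left) and ISU2 (right) by strain, with a circle for each array, coloured by the dye of the treated RNA, and a bar with its standard error for the mean. The RPB8 means run from 0.41 in yap1Δ to 3.51 in cad1Δ, and those of ISU2 from 0.47 in yap1Δ to 3.51 in cad1Δ.

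The largest and the second largest subunit of each polymerase, which together form the active site, did not move together. In the parent RPA190, the largest of Pol I, rose (0.41, 0.21, 0.69 and 0.78 on its arrays, mean 0.52) and RPA135, the second largest, fell (-0.72, -0.80, -0.82 and -0.63, mean -0.74). In Pol II RPB2, the second largest, rose (0.28, 0.36, 0.29 and 0.54, mean 0.37) and RPO21, the largest, fell (mean -0.82). In Pol III RPO31, the largest, rose (0.56, 0.53, -0.08 and 0.33, mean 0.33) and RET1, the second largest, fell (-0.55, -0.47, -0.94 and -0.59, mean -0.64). RPO31 lost its call without either parent array with treated RNA in Cy5 and RPB2 without 1 with treated RNA in Cy3, while the other 4 held without any single array.

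RPA135 fell in yap1Δ (-1.40 and -0.88), cad1Δ (-0.81 and -0.43), rpn4Δ (-1.70 and -1.05) and arr1Δ (-1.11 and -0.70) as well, and was below 0 on all 12 arrays with AsIII. RET1 fell in yap1Δ (-0.73 and -1.28), cad1Δ (-0.66 and -0.67), rpn4Δ (-0.63 and -0.59) and arr1Δ (-0.64 and -0.44), and was also below 0 on all 12. RPO31 rose more in yap1Δ (1.21 and 0.83) and rpn4Δ (1.52 and 1.33) than in the parent, and had 0.51 and 0.46 in cad1Δ and 0.48 and 0.26 in arr1Δ. RPA190 rose in yap1Δ (0.19 and 0.89) and cad1Δ (0.47 and 0.98) and had -0.40 and -0.15 in rpn4Δ and -0.51 and -0.10 in arr1Δ. RPB2 differed little between strains, at 0.44 in yap1Δ, 0.49 in cad1Δ, 0.52 in rpn4Δ, 0.09 in arr1Δ and 0.37 in the parent.

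RPO21 depended on the dye more than any other member in 11 of the 13 conditions on both platforms, the others being 1 mM on cDNA arrays and AsIII in cad1Δ, where RPC34 did. With treated RNA in Cy5 it had -0.22 in yap1Δ, -0.28 in cad1Δ, 0.61 in rpn4Δ, 0.68 in arr1Δ and -0.19 on both parent arrays. With treated RNA in Cy3 it had -1.76 in yap1Δ, -1.31 in cad1Δ, -0.79 in rpn4Δ, -0.46 in arr1Δ, and -1.37 and -1.52 in the parent. Its 2 probes shared this, with r of 0.999 over 20 arrays. The difference between rpn4Δ and the parent was 0.80 in Cy5 and 0.65 in Cy3, and that between arr1Δ and the parent 0.87 and 0.98, so these differences kept their sign within each dye although RPO21 itself did not keep its sign in rpn4Δ or arr1Δ.

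**Figure D3:**
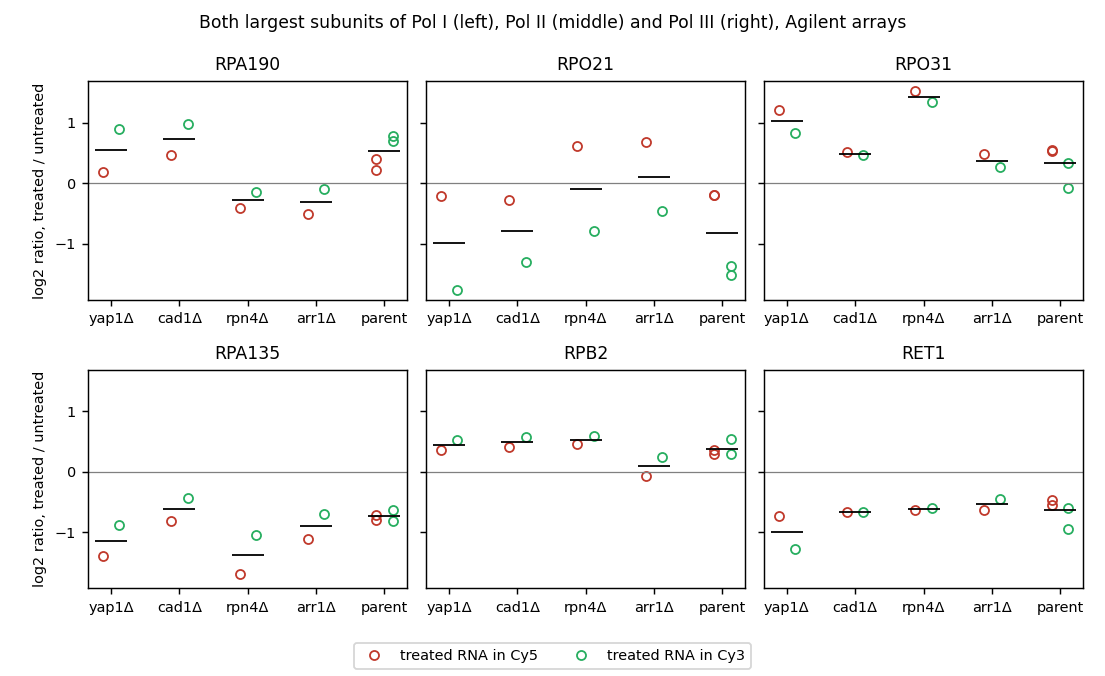
Log2 ratio of treated over untreated RNA (vertical axis) on single Agilent arrays for the largest subunits of Pol I, Pol II and Pol III (RPA190, RPO21 and RPO31, top row) and the second largest (RPA135, RPB2 and RET1, bottom row) by strain. Circles are arrays, coloured by the dye of the treated RNA, and bars are means. RPA135 and RET1 are below 0 on every array, and the RPO21 arrays separate by dye, as at -0.19 in Cy5 against -1.37 and -1.52 in Cy3 in the parent.

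The next question was whether a deletion changed the AsIII response, tested as the difference between the log2 ratio of a deletion strain and that of the parent. All 4 differences share the same parent arrays. In arr1Δ 2 subunit genes were higher and 11 lower than in the parent (6.45% and 35.5%, against 28.6% and 25.5% of all genes; median difference -0.28, against 0.04 over all genes). In rpn4Δ 3 were higher and 12 lower (9.68% and 38.7%, against 21.3% and 17.7%; median -0.20, against 0.06). In yap1Δ 2 were higher and 1 lower (against 5.39% and 7.36% of all genes), and in cad1Δ 1 was higher and 1 lower (against 1.75% and 2.48%). Within each dye orientation 32 of the 33 called differences had the same sign with a size above 0.1, the exception being RPC34 in cad1Δ (0.003 in Cy5 and 1.38 in Cy3). For 28 of the 33 the arrays of the strain and the parent did not overlap. They overlapped for RPC34 in cad1Δ, for RPO21, RPB11 and RPB8 in rpn4Δ and for RPO21 in arr1Δ. The 33 were selected by their mean difference on these same arrays, so both counts describe them and add no separate support. The same counts were not made over all genes.

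In arr1Δ the lower genes after RPB8 were, in order of size, RPA43, RPA49, RPB11, RPB3, RPA190 and RPA34, so that 4 were Pol I and 2 Pol II specific. RPA43 was lower by 1.34 (SE 0.21, adjusted p = 2.06e-09 in limma), RPA49 by 1.11 (adjusted p = 8.27e-07), RPB11 by 1.02 (adjusted p = 5.97e-06), RPB3 by 0.84 (adjusted p = 0.000206), RPA190 by 0.83 (adjusted p = 0.000257) and RPA34 by 0.79 (adjusted p = 0.000527). The median difference over the 7 Pol I specific genes was -0.79, against 0.18 over the 7 Pol II specific and -0.08 over the 10 Pol III specific genes. A lower response in arr1Δ was not particular to Pol I genes: the median was -1.16 over 136 cytosolic ribosomal protein genes and -0.44 over 49 genes for ribosome assembly. RPA34, RPA43, RPA49, RPA190 and RPB8 held without any single array, and the other 8 calls in arr1Δ did not. Those were RPB11 (-1.02), RPB3 (-0.84), RPC10 (-0.64), RPC40 (-0.57), RPC17 (-0.54) and RPB5 (-0.48) among the lower genes, and RPO21 (0.93) and RPB4 (0.55) among the higher.

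In rpn4Δ the lower genes came from every class: RPA43 (-0.82), RPA190 (-0.80) and RPA135 (-0.63) of Pol I, RPB11 (-0.81) of Pol II, RPC31 (-0.90), RPC17 (-0.77), RPC25 (-0.71) and RPC11 (-0.61) of Pol III, RPC40 (-0.63) of both, and RPC10 (-0.69), RPO26 (-0.51) and RPB8 (-0.49) of all 3. The higher genes were RPO31 (1.09, adjusted p = 3.04e-06 in limma), RPO21 (0.73) and RPC82 (0.54). Only RPO31 held without any single array. Leaving out a parent array in turn gave 6, 4, 5 and 6 calls (arrays 1 to 4). The SD of the fit came from the 2 parent pairs alone, and 1 of these then held a single dye orientation. A call lost this way can therefore reflect a changed SD for all genes, and does not by itself mean that the difference of that gene changed. For arr1Δ the same gave 8, 9, 7 and 7 calls.

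In yap1Δ 1 gene was called when any of the 4 parent arrays was left out, and 8 with each array as a replicate and the array number, which is also the dye, as a replicate block. Leaving out its Cy5 or Cy3 array set 1 dye of yap1Δ against a parent averaged over both dyes. Calls made that way mix the dye with the strain and are not counted here. RPB8 was the single member whose difference from the parent held in yap1Δ without any single array. RPC82 and RPO31 were higher in yap1Δ, by 0.65 and 0.68 (adjusted p = 0.0219 and 0.0136 in limma), and both lost their call when any of the 4 parent arrays was left out, as RPO31 also did without the yap1Δ array in Cy5 and RPC82 without the one in Cy3. In cad1Δ the difference of RPB11 was -0.97 (adjusted p = 0.000398 in limma). Its call was lost without parent arrays 1, 2 or 3, where the difference was still -0.97, -0.97 and -0.83. The difference of RPC34 was 0.69 (adjusted p = 0.0292 in limma). Its call was lost without any of the parent arrays or without the cad1Δ array in Cy3, where its difference was 0.12. The replicate block fit called 1 gene in cad1Δ.

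**Figure D4:**
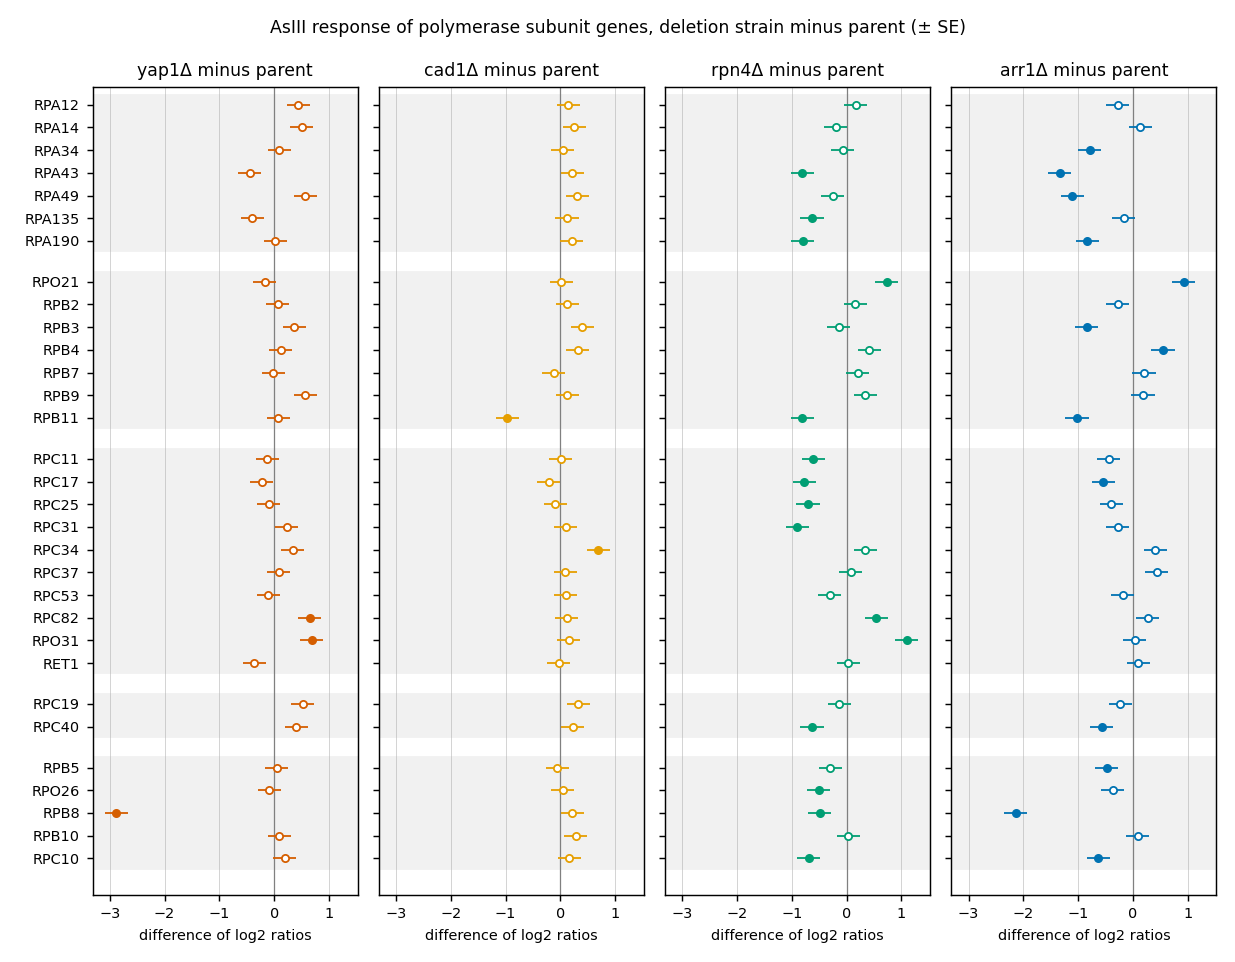
Difference between the log2 ratio after AsIII in a deletion strain and that in the parent (horizontal axis, with standard error) for each of the 31 genes (rows, in the same groups as before: Pol I, Pol II, Pol III, Pol I and III, all 3), a panel per strain. Filled symbols passed the adjusted threshold. RPB8 is at -2.88 in yap1Δ and -2.14 in arr1Δ, and 11 genes in arr1Δ and 12 in rpn4Δ are called below 0.

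Without AsIII few of these genes were called in the deletion strains, each measured on 1 dye-exchange pair, which does not mean that changes were small. No subunit gene passed in untreated yap1Δ or cad1Δ cells against the untreated parent (0 of 31 by limma, against 2.59% and 1.29% of all genes up and down in yap1Δ and 1.71% and 0.965% in cad1Δ), with 3 and 0 of the 31 at an unadjusted p under 0.05 and 0 and 0 with each array as a replicate. In untreated rpn4Δ cells RPA190 (0.19 and 0.98, mean 0.58) and RPA135 (0.41 and 0.71, mean 0.56) were higher and RPO31 (-0.26 and -0.82, mean -0.54) was lower, where 10.9% of all genes were higher and 11.0% lower. In untreated arr1Δ cells RPB10 (1.02 and 0.33, mean 0.67) and RPB8 (0.70 and 0.23, mean 0.46) were higher and RPO31 (-0.23 and -0.79, mean -0.51) was lower, where 11.8% and 11.5% of all genes were. Each of these 6 values had the same sign on both arrays but lost its call when 1 of them was left out. In rpn4Δ the AsIII responses of RPA190, RPA135 and RPO31 differed from the parent in the opposite direction (-0.80, -0.63 and 1.09). In arr1Δ that of RPB8 did too (-2.14), while RPB10 and RPO31 had no called difference. How far these differences reflect a shifted untreated level was not tested. With each array as a replicate and the array number as a replicate block, 1 gene was called in untreated yap1Δ, 0 in cad1Δ, 8 in rpn4Δ and 9 in arr1Δ. RPO21 had 1.57 and -1.17 on the untreated yap1Δ arrays, the widest dye difference of any member there.

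On the cDNA arrays few subunit genes passed, and standard errors were larger there than the 0.12 of the Agilent parent. Few calls therefore do not mean small changes: at 2 h of 100 µM the 31 genes ran from -1.10 to 1.38 with none called. At 1 mM AsIII for 30 min RPC19 and RPB8 rose, 2 of 31 (6.45%), and none fell, where 9.69% of all genes rose and 7.09% fell, and the median over the 31 genes was 0.29, against 0.02 over all genes. RPC19 had 1.10, 1.58, 1.52 and 1.17 in culture pair 1 and 0.81, 0.76, 1.02 and 0.95 in culture pair 2 (mean 1.11, 2.16-fold, SE 0.22, adjusted p = 0.0307 in limma). RPB8 had 0.65, 0.54, 1.81 and 1.33 in pair 1 and 0.52, 0.76, 0.79 and 0.91 in pair 2 (mean 0.92, 1.89-fold, SE 0.21, adjusted p = 0.0435). Both were above 0 on 8 of 8 arrays. The calls were narrow: without 1 array the adjusted p of RPC19 was 0.0527 to 0.0552 for arrays 1, 2 and 4, and that of RPB8 0.0629 to 0.0699 for arrays 1, 2, 3, 4 and 8.

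The highest after these at 1 mM were RPA12 (0.75, above 0 on 8 of 8 arrays) and RPC82 (0.72, 8 of 8), and the lowest were RPA135 (-0.89, below 0 on 8 of 8), RPB7 (-0.48) and RPC40 (-0.36), none of which passed. The large subunits RPA190 (-0.19), RPO21 (0.28), RPB2 (0.29), RPO31 (0.42) and RET1 (0.06) did not pass either. Class medians were 0.30 for Pol I, 0.28 for Pol II, 0.39 for Pol III, 0.38 for the genes shared by Pol I and III and 0.03 for those shared by all 3. The culture pairs gave the same sign for 23 of the 31 genes, with r of 0.656 over the 31, and differed by 0.28 at the median.

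**Figure D5:**
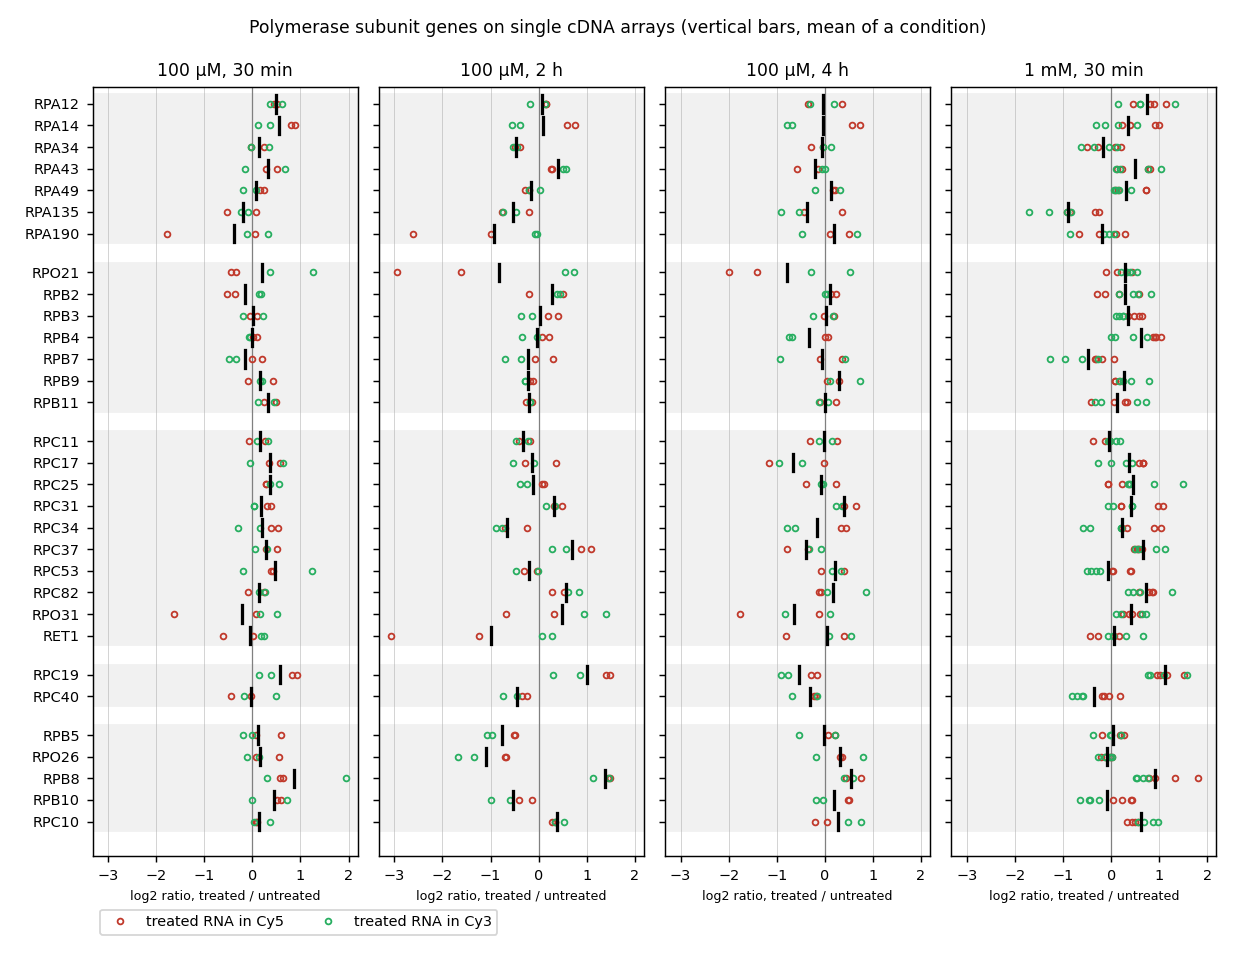
Log2 ratio of treated over untreated RNA (horizontal axis) on single cDNA arrays for each of the 31 genes (rows, in the same groups as before), a panel per condition. Circles are arrays, coloured by the dye of the treated RNA, and vertical bars are means. At 1 mM the 8 arrays of RPC19 and RPB8 all lie right of 0, and at 2 h of 100 µM the RPO21 and RET1 arrays spread from 0.74 to -2.95 and from 0.28 to -3.07.

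At 100 µM none of the 31 genes passed at any time by limma (of all genes, 0% passed at 30 min, 3.75% rose and 2.18% fell at 2 h, and 0.0542% rose and 0% fell at 4 h). At an unadjusted p under 0.05 there were 1, 7 and 1 of them at 30 min, 2 h and 4 h, and with each array taken as a replicate, which counts technical spread only, 0, 15 and 1 were called. The median over the 31 genes was 0.17 at 30 min, -0.17 at 2 h and -0.02 at 4 h, against -0.03, -0.06 and -0.04 over all genes. RPB8 was the highest at each time, with 1.94, 0.30, 0.56 and 0.63 at 30 min, 1.47, 1.12, 1.44 and 1.49 at 2 h (mean 1.38, adjusted p = 0.0599 in limma) and 0.40, 0.58, 0.74 and 0.44 at 4 h. RPC19 came next at 2 h (0.87, 0.31, 1.48 and 1.41, mean 1.01) and had a mean of -0.53 at 4 h, below 0 on all 4 arrays.

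The lowest at 2 h was RPO26, with -1.35, -1.67, -0.68 and -0.70 (mean -1.10, adjusted p = 0.0799 in limma), then RET1 (0.07, 0.28, -1.25 and -3.07) and RPA190 (-0.07, -0.04, -2.60 and -0.99). RPO21 had 0.55, 0.74, -1.61 and -2.95. For RET1, RPA190 and RPO21 the low values were the arrays with treated RNA in Cy5. RPB5 was below 0 on all 4 arrays at 2 h (-0.97, -1.08, -0.52 and -0.50), as was RPA135 (-0.48, -0.75, -0.19 and -0.75). RPO31 (0.50) and RPB2 (0.28) were above 0 at 2 h, with 1 of 4 arrays below 0 in each.

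At 30 min RPC19 (0.57) and RPA14 (0.54) followed RPB8, and RPA190 (-0.38), RPO31 (-0.22) and RPA135 (-0.20) were lowest. At 4 h RPC31 (0.41) and RPO26 (0.32) followed RPB8, and RPO21 (-0.79), RPO31 (-0.65) and RPC17 (-0.65) were lowest. Tested against each other, no subunit gene differed between 2 h and 30 min, between 4 h and 2 h or between 1 mM and 100 µM at 30 min (0 of 31 in each by limma, against 0% of all 5540 genes), with 2, 4 and 0 of the 31 at an unadjusted p under 0.05 and 5, 7 and 4 with each array as a replicate.

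At 100 µM for 2 h the parent was measured on both platforms, from poly(A) RNA on cDNA arrays and total RNA on Agilent arrays. Over the 31 genes the log2 ratios correlated with r of 0.624 and rho of 0.491, and 18 of 31 had the same sign, while over 5513 genes on both platforms r was 0.382 and 60% had the same sign. Without RPB8 the r over the subunit genes was 0.468. These are correlations across genes, which are not independent replicates. RPB8 had a mean of 1.38 (2.60-fold) on cDNA arrays and 3.30 (9.83-fold) on Agilent arrays, and ISU2 3.70 and 2.87. RPC19 (1.01 and 0.93) and RPA135 (-0.54 and -0.74) were alike in sign on both. RPO21 had the same mean on both (-0.82), but from opposite dyes: with treated RNA in Cy5 it had -2.28 on cDNA and -0.19 on Agilent arrays, and in Cy3 0.65 and -1.44. RET1 (-0.99 and -0.64) had -2.16 in Cy5 and 0.17 in Cy3 on cDNA arrays, so its cDNA mean came from the Cy5 arrays, while on Agilent arrays it was below 0 in both dyes. In contrast, RPA34 (-0.47 and 1.14), RPO26 (-1.10 and 0.32) and RPA190 (-0.93 and 0.52) were opposite.

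Other genes of transcription, from lists chosen for their function, were set beside the subunits. SPT15, the TATA-binding protein used by all 3 polymerases, rose on both platforms, with 1.82 at 1 mM and 1.90 at 2 h of 100 µM on cDNA arrays (adjusted p = 0.00804 and 0.0356 in limma) and, on Agilent arrays, 0.55 in yap1Δ, 1.86 in cad1Δ, 1.74 in rpn4Δ, 1.49 in arr1Δ and 1.88 in the parent. Its response in yap1Δ was lower than in the parent by 1.33, a called difference, and those of the other deletions were not called. In the parent on Agilent arrays 34.7% of all genes rose and 42.7% fell. Of 9 Pol I initiation factors 5 rose and 2 fell there (median 0.53), led by RRN11 (1.27) and RRN9 (1.26), and on cDNA arrays RRN7 rose at 1 mM (1.43). Of 10 Pol III factors 1 rose and 8 fell in the parent (median -0.45, against 0.32 over the Pol III subunits), led by TFC3 (-1.04) and TFC7 (-0.75), both of the factor TFIIIC. None of them passed on cDNA arrays at 2 h or at 1 mM, where 3.75% and 9.69% of all genes rose and 2.18% and 7.09% fell.

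Of 18 Pol II initiation factors 5 rose and 6 fell in the parent (shares below the 34.7% and 42.7% of all genes), with SSL2 (2.09) and RAD3 (-1.01), both helicases of the factor TFIIH, at the ends, and on cDNA arrays SSL2 rose at 1 mM (1.69) and had 1.53 at 2 h (not called). Of 4 elongation factors 2 rose and 1 fell, among them SPT4 (0.41) and SPT6 (-0.81). Of 8 genes for polymerase assembly and import 4 rose and 2 fell, including NPA3 (1.21), a GTPase that helps bring Pol II into the nucleus, and IWR1 (-1.0), an import adaptor for Pol II, and on cDNA arrays BUD27, which acts in assembly of all 3 enzymes, rose at 1 mM (1.27).

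Genes for ribosome assembly in the nucleolus and for cytosolic ribosomal proteins were set beside them too. Over all genes 34.7% rose and 42.7% fell in the parent on Agilent arrays. Of 49 assembly genes 27 rose and 7 fell in the parent (median 0.36), including IMP4 (3.58) and ENP1 (3.00), and their medians were 0.32 in yap1Δ, 0.52 in cad1Δ, -0.13 in rpn4Δ and -0.14 in arr1Δ. Of 136 ribosomal protein genes 109 rose and 5 fell in the parent (median 0.50), with medians of 0.56 in yap1Δ, 0.78 in cad1Δ, -0.11 in rpn4Δ and -0.60 in arr1Δ. In untreated cells 132 of them were higher in rpn4Δ (median 1.27) and 133 in arr1Δ (median 1.10) than in the parent, where 10.9% and 11.8% of all genes were higher. On the cDNA arrays at the same dose and time 3.75% of all genes rose and 2.18% fell. Of 48 assembly genes 1 rose there, UTP7 (1.55), and 0 fell (median 0.07), with DIP2 lowest at -1.17. Of 134 ribosomal protein genes 0 rose and 32 fell (median -1.75). The platforms thus gave opposite signs for this list, and the 31 polymerase genes had medians of -0.17 on cDNA and 0.35 on Agilent arrays.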

How the data were processed

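Ratios only were used, since intensities were not analysed here. The spotted-array values are log2 ratios of treated over untreated, turned that way and deposited by the authors; their normalization is not given in the sources used here. The Agilent values were deposited by the authors as log10 ratios (Feature Extraction and Rosetta Resolver), limited to a 100-fold change, and were converted to log2. No value of the 31 genes reached the limit, and no value was missing. Probes were named from the platform annotation (5577 of 6720 cDNA and 9202 of 10807 Agilent probes had a gene symbol), values of several probes of a gene were averaged, and no filter was set on low values. The 31 genes had 53 Agilent probes, 22 genes with 2 and 9 with 1.

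Arrays of a culture pair or dye-exchange pair were averaged. Which parent arrays form a pair was taken from their numbers (1 and 2, 3 and 4), an assumption. limma 3.58.1 in R 4.3.3 fitted 5 cDNA replicates in 4 conditions and 10 Agilent replicates in 9 conditions, each with 1 residual degree of freedom, with prior degrees of freedom of 4.28 (SD 0.311) on cDNA and an infinite number (SD 0.172) on Agilent arrays; single pairs were assumed to vary like the replicated condition. The fit was checked on simulated data. Summaries used pandas 2.3.3 and numpy 2.4.6 in Python 3.11.15, and plots matplotlib 3.10.9. Array number was checked as a pairing: deviations of arrays with the same number correlated with r of -0.11 to 0.706 on cDNA and 0.480 to 0.959 on Agilent arrays. The medians were 0.398 and 0.710, against -0.299 and -0.710 for arrays of other numbers. On both platforms the number also fixes the dye orientation.

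The members and lists were chosen with earlier results of these data known. All 31 genes may be named. Described in full are those past the threshold, the 3 highest and 3 lowest in a comparison and the largest subunits; of the other lists, the 2 with the largest size of change at 1 mM, at 2 h and in the parent. The alternatives tried were: arrays centred on their medians, single arrays as replicates (with or without a block for array number), 1 dye only, eBayes in its robust form, a 2-fold change at an unadjusted p below 0.001, the 95% normal range on 3 of 4 arrays (6 of 8 at 1 mM), medians of probes, and leaving out arrays or pairs. No sequence or coordinate is shown, because no genome of a named build was used. The number of arrays limits the precision.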

Additional observations from a re-analysis of the deposited data

Results flagged for a closer look

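Single arrays stood far from the others of their condition for 6 of 155 combinations of gene and condition, by Dixon's test at its 95% critical value, where chance alone marks about 1 in 20. At 2 h of 100 µM, array 2 read -0.17 for RPA12, against 0.12 to 0.16 on the others, and 1.12 for RPB8, against 1.44 to 1.49. At 4 h array 2 read 0.86 for RPC82, against -0.13 to 0.04, and -0.69 for RPC40, against -0.24 to -0.17. At 1 mM array 5 read 0.78 for RPB9, against 0.07 to 0.41, and in the parent on Agilent arrays array 4 read -0.038 for RPB7, against 0.20 to 0.24. All 6 had treated RNA in Cy3, and none of these genes was called in that condition.

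The AsIII response differed between a deletion strain and the parent for 33 combinations of gene and strain, each by limma's test of the difference itself. In yap1Δ these were RPB8 (-2.88), RPO31 (0.68) and RPC82 (0.65), and in cad1Δ RPB11 (-0.97) and RPC34 (0.69). In rpn4Δ they were RPC31 (-0.90), RPA43 (-0.82), RPB11 (-0.81), RPA190 (-0.80), RPC17 (-0.77), RPC25 (-0.71), RPC10 (-0.69), RPA135 (-0.63), RPC40 (-0.63), RPC11 (-0.61), RPO26 (-0.51), RPB8 (-0.49), RPC82 (0.54), RPO21 (0.73) and RPO31 (1.09). In arr1Δ they were RPB8 (-2.14), RPA43 (-1.34), RPA49 (-1.11), RPB11 (-1.02), RPB3 (-0.84), RPA190 (-0.83), RPA34 (-0.79), RPC10 (-0.64), RPC40 (-0.57), RPC17 (-0.54), RPB5 (-0.48), RPB4 (0.55) and RPO21 (0.93).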

How the results depend on the processing

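Of the 20 counts of subunit genes called, 11 moved by over 1.5 times with each array as a replicate, 12 with a replicate block added and 12 with a 2-fold rule. With each array as a replicate the counts were 15 at 2 h, 1 at 4 h and 18 at 1 mM on cDNA arrays, 5 for 2 h against 30 min, 7 for 4 h against 2 h and 4 for 1 mM against 100 µM, 0 and 1 in untreated rpn4Δ and arr1Δ, and 5, 0 and 8 for the differences of yap1Δ, cad1Δ and rpn4Δ from the parent. With a replicate block for array number added, they were 1, 16, 3 and 19 at 30 min, 2 h, 4 h and 1 mM, 7, 10 and 6 for those differences in time and dose, 1, 8 and 9 in untreated yap1Δ, rpn4Δ and arr1Δ, and 8 and 1 for yap1Δ and cad1Δ minus the parent; no other count moved by over 1.5 times under the block. On cDNA arrays too the number fixes the dye orientation, and the labels do not say that arrays of the same number are paired, so this is given as a value only.

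With treated or deletion RNA in Cy5 alone the counts were 3 at 2 h on cDNA arrays, 7, 1 and 9 in untreated yap1Δ, cad1Δ and arr1Δ, and 1 and 0 for yap1Δ and cad1Δ minus the parent. In Cy3 alone they were 3 and 5 in untreated yap1Δ and rpn4Δ, and 1, 0, 5 and 7 for yap1Δ, cad1Δ, rpn4Δ and arr1Δ minus the parent. Robust eBayes gave 5 in untreated rpn4Δ and 7 for yap1Δ minus the parent. A 2-fold change at an unadjusted p below 0.001 gave 0 at 1 mM, 8, 6, 5, 1 and 4 after AsIII in yap1Δ, cad1Δ, rpn4Δ, arr1Δ and the parent, 0 in untreated rpn4Δ and arr1Δ, and 1, 0, 1 and 4 for the differences of yap1Δ, cad1Δ, rpn4Δ and arr1Δ. The 95% normal range gave 0 at 1 mM. Centring each array and taking the median of probes moved no count by over 1.5 times.

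Leaving out 1 array at a time gave 0 to 0, 0 to 3, 0 to 0 and 0 to 3 calls at 30 min, 2 h, 4 h and 1 mM, 0 to 0 for each difference in time and dose, 18 to 20, 21 to 23, 17 to 19, 14 to 19 and 19 to 23 after AsIII in yap1Δ, cad1Δ, rpn4Δ, arr1Δ and the parent, 8 to 8, 1 to 3, 4 to 7 and 5 to 10 in the untreated deletion strains in that order, and 1 to 12, 0 to 3, 4 to 13 and 7 to 17 for their differences from the parent. The SD of each platform came from its only replicated condition, the Agilent parent or 1 mM on cDNA arrays. Leaving out an array of that condition therefore also changed the SD used for all genes. Leaving out an array of a deletion strain left 1 array in 1 dye orientation. Calls then mix the dye with the strain, and a difference sets 1 dye against a parent averaged over both. Leaving out a culture pair leaves no residual degrees of freedom, so it gave values with no test.

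Among values called before or after an alternative was applied, those that changed sign were mostly of RPO21. Without 1 array or the other (array 1, then array 2 left out), RPC34 in cad1Δ had 1.07 and -0.069, RPO21 had -0.79 and 0.61 in rpn4Δ, -0.46 and 0.68 in arr1Δ, -1.17 and 1.57 in untreated yap1Δ, -0.76 and 0.61 in untreated cad1Δ, -1.45 and 0.75 in untreated arr1Δ, and -0.94 and 0.60 for yap1Δ minus the parent (all 4 parent arrays kept), and RPO31 in untreated yap1Δ had -0.47 and 0.79. With 1 array left out, the value of a deletion strain came from 1 dye orientation, so array and dye cannot be told apart here. For yap1Δ minus the parent it set 1 dye against a parent averaged over both dyes. The cause was not tested. Among values of single genes under the alternatives, 119 newly passed the threshold, 244 no longer passed and 13 changed sign while called before or after. The other 2670 were counted as unchanged, and include sign changes of genes called in neither fit. Also among them are 72 values with 1 pair left out, which have no test and were compared by size.

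The number of arrays limits the precision: the spread rests on 1 residual degree of freedom on each platform, and the Agilent deletion strains were each measured on 1 dye-exchange pair. Changed transcription and changed stability of an RNA cannot be told apart here, and poly(A) and total RNA were used on different platforms.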
